A study of Mus musculus with 70 samples.

Results

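The 9 genes described here are parts and readouts of the Hippo pathway: the co-activator genes Yap1 and Wwtr1 (the gene of TAZ), the DNA-binding partner genes Tead1, Tead2 and Tead3, the target genes Cyr61 and Ctgf (listed as Ccn1 and Ccn2 in current annotation), and Amotl2 and Lats2, which are both targets and inhibitors. They were picked by symbol, each matched 1 row of the 23078 genes in the table, and all 9 were among the 15508 genes that reached a mean of 1 TPM (a length-corrected share of the library's transcripts, on a scale that gives every library the same total) in at least 1 group and were tested. The study followed cells of the developing mouse dorsal cortex in 70 bulk RNA-seq libraries. Cells carrying GFP were sorted from wild-type C57Bl/6 animals, all listed as female. Neural stem cells (NSC, 33 libraries) came from the Hes5::GFP line at 10 stages from embryonic day E10.5 to PN, which the protocol gives as postnatal day 1. Basal progenitors (BP, 23 libraries, 8 stages from E12.5) and newborn neurons (NBN, 14 libraries, 5 stages from E15.5) came from the Tbr2::GFP line. Each of the 23 groups of 1 cell type at 1 stage holds 2 to 4 libraries.

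In the Hippo pathway, a kinase chain of the STE20-like kinases Stk3 and Stk4 and the LATS kinases phosphorylates YAP and TAZ and keeps them out of the nucleus. Unphosphorylated YAP and TAZ enter the nucleus, bind TEAD factors, which have little activating power alone, and switch on growth and matrix genes such as Cyr61 and Ctgf. Lats2 and Amotl2 are themselves targets and act back on YAP and TAZ, LATS2 as a kinase and AMOTL2 as a junctional and cytoplasmic anchor. In the embryonic cortex YAP is known from the radial glia that line the ventricle, and is low in neurons. Transcript levels, which are all that was measured here, do not show where the proteins were or whether they were phosphorylated.

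TEAD factors bind the hexamer GGAATG, or CATTCC on the opposite strand, and the promoters of the co-activators, of Tead3 and of Cyr61 are shown because these genes differ between the sorted fractions below. RefSeq promoters on GRCm38.p6 were found for 7 of the 9 genes and were searched on both strands over the 250 bases before each listed start. Promoters of Yap1, Wwtr1, Tead3, Cyr61 and Amotl2 held the hexamer, 5 of 7 genes, and those of Tead2 and Lats2 did not. Of these, Amotl2 was not called in any comparison of fractions below, while Tead2 was called lower in NBN. Among all 27025 genes with a listed promoter, 14.4% held the hexamer. Each stretch below runs 5′ to 3′ on the gene's own strand, with the hexamer in capitals. The Yap1 stretch is at chr9:8004710-8004759 on the minus strand, the Wwtr1 stretch at chr3:57576019-57576068 on the minus strand, the Tead3 stretch at chr17:28350960-28351009 on the minus strand and the Cyr61 stretch at chr3:145650061-145650110 on the minus strand, and none of the 4 overlaps an annotated exon.
Yap1: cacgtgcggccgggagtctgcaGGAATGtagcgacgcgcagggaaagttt
Wwtr1: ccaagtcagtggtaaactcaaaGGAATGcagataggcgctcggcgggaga
Tead3: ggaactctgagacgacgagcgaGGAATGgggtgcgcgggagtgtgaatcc
Cyr61: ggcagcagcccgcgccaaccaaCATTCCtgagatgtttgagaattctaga
The hexamer begins 141 bases before the start in Yap1, 103 bases before it in Cyr61 and 182 bases before the first of 3 listed Tead3 starts. In Wwtr1 the same hexamer lies 136 or 170 bases before the start, depending on which of its 2 listed starts is taken. Matches that overlap an exon of their own gene are not shown. They lie 123 and 114 bases before the second Tead3 start and 65 bases before the Amotl2 start. The third Tead3 start had none. These are matches of letters, and no binding was measured.

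Some facts about the libraries bear on the results. The marker genes for neural stem cells were lower in BP for 8 of 8 listed genes, while the basal progenitor list was called higher in BP for 1 of 6 genes, and its summed level overlapped between the fractions (529.5 to 1780 TPM over 27 NSC libraries and 908 to 1733 TPM over 23 BP libraries). The third NSC library of PN is labelled basal progenitor in 1 field and NSC in its title and reporter line. It was kept as NSC, its Yap1 level of 39.8 TPM lay beside 42.2 and 39.6 TPM in the other two, and leaving it out changed the call in 0 of 36 results on the 9 genes. Comparisons of NSC with BP or NBN are also comparisons of reporter lines, and the 2 cannot be told apart. In sorted bulk RNA, fewer cells of a type and less RNA per cell cannot be told apart either. The labels do not say whether libraries of a group came from separate animals, so p-values measure the spread between libraries, which may be technical.

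**Figure D1:**
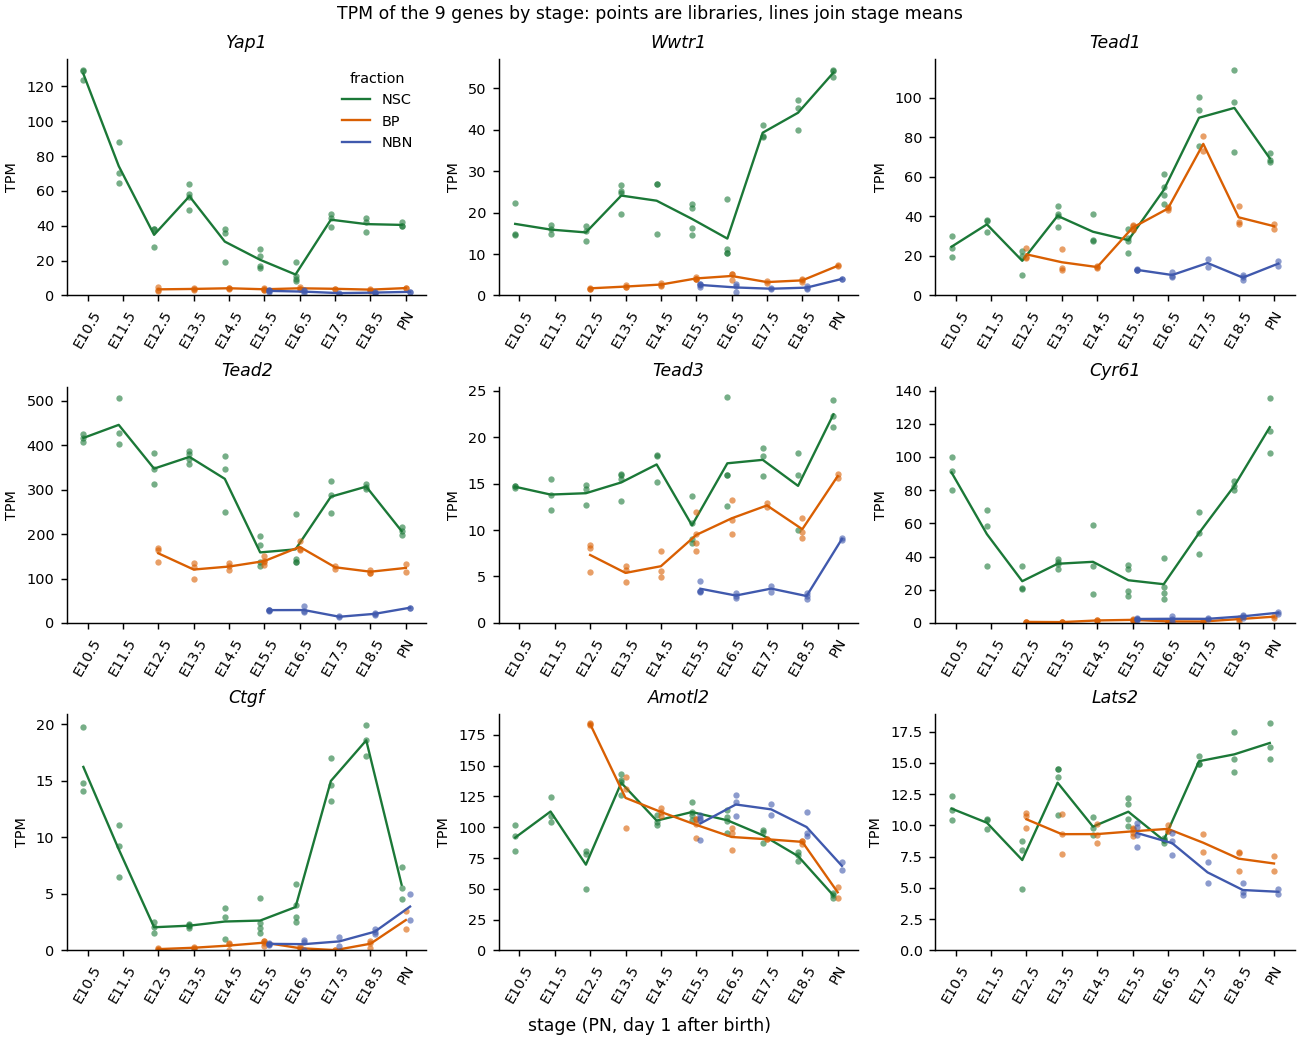
TPM (linear axis from 0) of each of the 9 genes against stage, with 1 point per library and lines through the stage means of NSC (green), BP (orange) and NBN (blue). Yap1, Wwtr1, Cyr61 and Ctgf were lower in every BP library than in every NSC library of the same stage, while Amotl2 overlapped between BP and NSC at most stages and Lats2 was lower in BP than in NSC from E17.5 on.

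Yap1, the gene of the co-activator YAP (chromosome 9, 7931999 to 8004596, minus strand, GRCm38), was high in NSC and low in the cells derived from them. Over the 8 stages that both fractions share, Yap1 ranged from 8.28 to 64.1 TPM with a median of 38.1 in 27 NSC libraries. In the 23 BP libraries it ranged from 2.70 to 4.89 TPM with a median of 3.84, and in the 14 NBN libraries from 1.12 to 3.00 TPM with a median of 1.98. The lowest NSC library was thus above the highest BP library over all stages, and BP levels hardly varied. The mean of the NSC stage means was 9.15 times that of BP and, over the 5 stages shared with NBN, 15.7 times that of NBN. Where fractions are compared for the rest of the 9 genes, ranges and medians likewise cover 8 stages for NSC and BP and 5 for NBN, unless stated. On the log2(TPM + 1) scale used for all tests, which understates changes of low genes, Yap1 was lower in BP than in NSC by a difference of -2.76 ± 0.07 (SE; limma, adjusted p = 3.18e-37).

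Wwtr1, the gene of the paralogous co-activator TAZ (chromosome 3, 57455649 to 57575910, minus strand), showed the same ordering of fractions. It ranged from 10.2 to 54.4 TPM with a median of 24.8 in NSC, from 1.61 to 7.25 TPM with a median of 3.42 in BP, and from 0.880 to 4.04 TPM with a median of 2.22 in NBN. Ranges of NSC and BP did not meet at any stage. The log2 difference of BP against NSC was -2.59 ± 0.07 (limma, adjusted p = 1.02e-36). Between NBN and BP neither co-activator gene passed the minimum difference of 1 that a call also requires, with -0.71 ± 0.10 for Yap1 and -0.72 ± 0.09 for Wwtr1.

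Cyr61, a matricellular protein gene and a standard readout of YAP and TAZ (chromosome 3, 145646976 to 145649981, minus strand), had the largest difference of the 9 between BP and NSC. In NSC it ranged from 14.6 to 136 TPM with a median of 35.5, and in BP from 0.275 to 4.43 TPM with a median of 1.16. The ratio of the averaged stage means was 32.4, and the log2 difference was -4.16 ± 0.11 (limma, adjusted p = 1.08e-36). In NBN Cyr61 ranged from 0.517 to 6.77 TPM with a median of 2.82, so it was no lower there than in BP, and NBN against BP gave 0.61 ± 0.15, which was not called.

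Ctgf, the connective tissue growth factor gene and the other classical target (chromosome 10, 24595442 to 24598683, plus strand), was much lower in level throughout. It ranged from 1.02 to 19.9 TPM with a median of 2.92 in NSC. It lay between 0.0209 and 3.48 TPM in 22 BP libraries and was listed at 0 in the remaining 1, with a median of 0.327 TPM. The log2 difference of BP against NSC was -1.95 ± 0.09 (limma, adjusted p = 1.24e-26), and with a pseudocount of 5 in place of 1 it was -0.89, short of the minimum. In NBN the median was 0.827 TPM, with 1 of 14 libraries listed at 0 and a highest value of 5.02 TPM. NBN against BP gave 0.43 ± 0.12 for Ctgf, not called, and with a pseudocount of 0.1 it was called higher at 1.03. NBN against NSC gave -1.87 ± 0.11 (limma, adjusted p = 1.51e-21), and with a pseudocount of 5 it was just short of the minimum and not called.

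None of the 3 Tead genes was called between NSC and BP, and all 3 were lower in NBN than in BP. Tead2, a TEAD gene known from early embryonic neural tissue (chromosome 7, 45215753 to 45233644, plus strand), ranged from 128 to 387 TPM with a median of 287 in NSC, from 99.98 to 184.6 TPM with a median of 134 in BP, and from 13.3 to 37.0 TPM with a median of 27.0 in NBN. BP lay below NSC at 6 of 8 stages and overlapped at E15.5 and E16.5. The difference of BP against NSC was -0.94 ± 0.05, just short of a call, and over the stages from E17.5 alone it was -1.10. From BP to NBN it was -2.42 ± 0.07 (limma, adjusted p = 2.27e-34). An exon of Tead2 overlaps Cd37 on the opposite strand, and counting is not stated to use strand, but Cd37 reached at most 1.66 TPM in any library.

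Tead1, a widely expressed TEAD gene (chromosome 7, 112679318 to 112906807, plus strand), ranged from 12.98 to 80.4 TPM with a median of 33.8 in BP and from 7.89 to 18.499 TPM with a median of 12.8 in NBN. Every NBN library was thus below the lowest of the BP libraries of the same 5 stages, 32.9 TPM, and the difference was -1.72 ± 0.09 (limma, adjusted p = 2.33e-24). Against NSC, BP gave only -0.55 ± 0.06, with BP below NSC at 5 of 8 stages and overlapping at E12.5, E15.5 and E17.5. Tead3 (chromosome 17, 28331671 to 28350817, minus strand) was the lowest of the 3, with medians of 15.9 TPM in NSC, 9.18 TPM in BP and 3.34 TPM in NBN. Its difference of NBN against BP was -1.31 ± 0.08 (limma, adjusted p = 2.04e-20), and with a pseudocount of 5 it was -0.86, not called.

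Amotl2 and Lats2 were not called in any of the 3 comparisons of fractions. Amotl2, the gene of an angiomotin family protein (chromosome 9, 102716672 to 102733418, plus strand), had medians of 102 TPM in NSC, 99.6 TPM in BP and 108 TPM in NBN, and its 3 ranges overlapped widely. Over the 5 stages shared with NBN, its medians were 95.9 TPM in NSC and 90.25 TPM in BP. Its differences in NBN were 0.29 ± 0.05 against BP and 0.26 ± 0.05 against NSC. At E12.5 the 3 BP libraries stood at 184.9, 183.6 and 183 TPM against 80.6, 78.3 and 49.97 TPM in NSC, the opposite direction to Cyr61, and at E18.5 BP also lay above NSC. The NSC libraries of E12.5 were themselves below those of E11.5 and E13.5, for Amotl2 and for Lats2. Over the 8 stages the Amotl2 difference of BP against NSC was 0.16 ± 0.04. Lats2, one of the 2 LATS kinase genes (chromosome 14, 57689662 to 57758388, minus strand), had medians of 11.7 TPM in NSC, 9.33 TPM in BP and 7.36 TPM in NBN. Over the 5 stages shared with NBN, its medians were 14.25 TPM in NSC and 9.24 TPM in BP. Its BP libraries lay above NSC at E12.5 and E16.5 and below NSC at E15.5, E17.5, E18.5 and PN. The difference was -0.38 ± 0.04 over the 8 stages, not called. At PN the 3 NSC libraries stood at 15.3, 18.2 and 16.2 TPM, the 2 BP libraries at 6.35 and 7.55 TPM and the 2 NBN libraries at 4.50 and 4.88 TPM. NBN against NSC gave -0.91 ± 0.06 for Lats2 (limma, adjusted p = 1.65e-21), just short of a call, and it was called lower over the stages from E17.5 alone (-1.44) and with a pseudocount of 0.1 (-1.01).

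In counts, 4 of the 9 genes were lower in BP than in NSC, beside 6.22% of all tested genes, and 0 were higher, beside 1.87%; at an unadjusted p below 0.05 in limma, 8 were lower and 1 was higher. From BP to NBN 3 were lower, beside 5.06% of all genes, and 0 were higher, beside 4.36% (6 lower and 3 higher at an unadjusted p below 0.05; Ctgf was called higher with a pseudocount of 0.1). NBN against NSC shares its libraries with both of these comparisons, and there 7 were lower, beside 12.6%, and 0 higher, beside 6.51% (8 lower and 1 higher at an unadjusted p below 0.05). The 4 genes below NSC in every BP library at each of the 8 stages were Yap1, Wwtr1, Cyr61 and Ctgf, and 4.14% of all tested genes met that condition. The median difference of the 9 genes was -0.94 for BP against NSC and -0.71 for NBN against BP, beside medians of -0.02 and -0.07 over all tested genes.

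**Figure D2:**
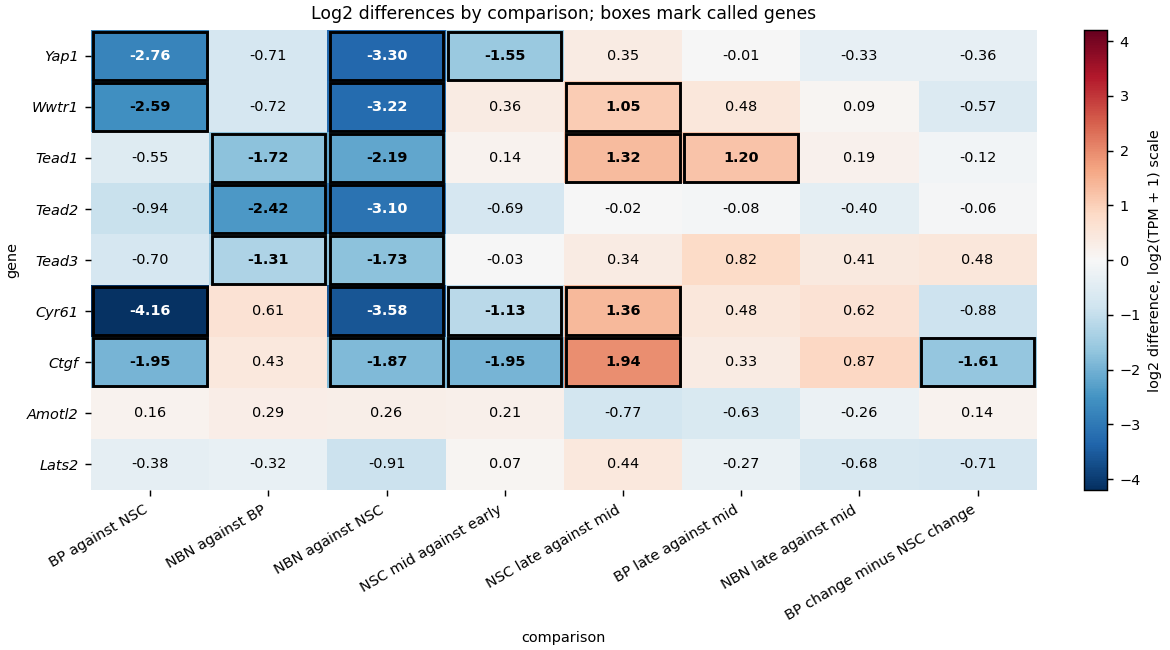
Log2 differences on the log2(TPM + 1) scale for the 9 genes (rows) in 8 comparisons (columns), with colour and printed value for the size and a black box where the adjusted p was below 0.05 and the difference at least 1. The co-activators and the targets Cyr61 and Ctgf are boxed for BP against NSC and the 3 Tead genes for NBN against BP, and Amotl2 and Lats2 have no box.

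Marker levels moved with the fractions and are given beside these results. Of 8 neuron markers 4 were higher in BP than in NSC, and their summed level was 1154 to 6310 TPM in NSC, 3911 to 7277 TPM in BP and 6093 to 9684 TPM in NBN. Blood vessel cells and their wall cells express Cyr61 and Ctgf strongly. The sum of 8 endothelial markers overlapped between NSC (2.15 to 52.4 TPM, median 10.6) and BP (1.72 to 78.7 TPM, median 10.4), with 0 of 8 called. The sum of 6 mural markers was 9.43 to 104.7 TPM with a median of 31.6 in NSC and 1.51 to 27.8 TPM with a median of 5.85 in BP. Of the mural markers 2 of 6 were called lower in BP. Their medians in NSC and BP were 19.8 and 1.68 TPM for Notch3, which neural stem cells also express, 3.42 and 0.657 TPM for Pdgfrb, 2.92 and 2.00 TPM for Rgs5, 0.905 and 0.949 TPM for Abcc9, 0.309 and 0.293 TPM for Kcnj8, and 0.154 and 0.115 TPM for Anpep. A list of 13 genes induced by dissociation had medians of 531 TPM in NSC and 351 TPM in BP, with 4 of 13 called lower in BP. Also called lower in BP were 6 of 6 oligodendrocyte precursor, 3 of 6 astroglial and 1 of 4 tested ependymal markers, with 0 higher. From BP to NBN, 2 of 6 microglial and 1 of 6 oligodendrocyte precursor markers were called higher, and 2 of 6 astroglial ones lower. At an unadjusted p below 0.05 in limma, 6 of 6 microglial and 5 of 6 meningeal markers were higher in NBN and 0 lower. By the same measure 4 of 8 endothelial and 3 of 6 mural markers were higher, with 0 lower in each list. For choroid plexus and ependymal markers 2 of 4 tested were lower, and 0 higher, in each list. The part of any of these in the results was not tested.

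Within NSC, the co-activators and targets changed over time in different ways. Yap1 was highest at the earliest stage, with 123, 129 and 129 TPM at E10.5 and 88.3, 70.3 and 64.3 TPM at E11.5. It did not fall steadily from there. At E12.5 it was 27.9 to 38.4 TPM, at E13.5 49.1 to 64.1 TPM and at E14.5 19.0 to 38.1 TPM. All E13.5 libraries lay above those of E12.5 and E14.5. At E15.5 it stood at 17.1, 22.5, 26.5 and 15.8 TPM and at E16.5 at 11.2, 8.28, 9.51 and 19.2 TPM. At E17.5 it was 39.4, 44.5 and 46.7 TPM, and E18.5 and PN libraries stayed between 36.5 and 44.5 TPM. Every early library thus lay above every later one, the nearest being an E13.5 library at 64.1 TPM. For the tests, stages E10.5 and E11.5 were pooled as early, E13.5 through E15.5 as mid and E17.5 through PN as late. Yap1 was lower in mid than in early NSC by a difference of -1.55 ± 0.13 (limma, adjusted p = 4.87e-16), while late against mid gave 0.35 ± 0.11, not called.

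Wwtr1 had no early peak. Its early libraries ranged from 14.498 to 22.4 TPM (median 15.49), the mid libraries from 14.55 to 27.0 TPM (median 22.1) and the late libraries from 38.2 to 54.4 TPM (median 45.2). The late libraries all lay above all earlier ones. The late window was higher than the mid window by 1.05 ± 0.11 (limma, adjusted p = 1.81e-12). That call sits at the minimum: without the third E14.5 library it was 0.96, with a pseudocount of 5 it was 0.93, after median ratio scaling 0.94 and after quantile normalization 0.95, none of them called.

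The balance of the 2 co-activator transcripts therefore shifted with stage. The ratio of Yap1 to Wwtr1 TPM in single libraries was 4.36 to 8.90 (median 5.49) in the early NSC libraries, 1.05 to 2.48 (median 1.33) in the mid libraries and 0.728 to 1.16 (median 0.914) in the late ones. Early ratios did not overlap with mid or late ones. In BP the median ratio was 1.48 over the mid libraries (0.794 to 1.83) and 0.923 over the late ones (0.582 to 1.22), and in NBN it was 0.928 (0.496 to 1.37). Both genes' TPM enter the ratio per length, and no test was run on it.

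Cyr61 and Ctgf were both lower in mid than in early NSC and higher again in late than in mid NSC. Cyr61 stood at 100.2, 80.1 and 91.7 TPM at E10.5, and at 34.2, 20.2 and 21.0 TPM at E12.5. In the mid window it ranged from 16.2 to 59.0 TPM (median 34.1), in the late window from 41.4 to 136 TPM (median 82.4), and its highest values were the 3 PN libraries with 136, 116 and 102 TPM. The mid window was lower than the early one by a difference of -1.13 ± 0.20 (limma, adjusted p = 1.16e-06) and the late window was higher than the mid one by 1.36 ± 0.18 (limma, adjusted p = 1.24e-09). The first of these calls was lost without the third E14.5 library (-0.98), and with E12.5 added to the early window it was -0.65.

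Ctgf followed a similar course until birth. It was 19.7, 14.8 and 14.1 TPM at E10.5 and 11.1, 9.25 and 6.46 TPM at E11.5. From E12.5 to E15.5 all 14 NSC libraries lay between 1.02 and 4.63 TPM. At E17.5 it was 13.2, 17.1 and 14.6 TPM, at E18.5 17.2, 19.9 and 18.6 TPM, and at PN 5.55, 7.36 and 4.51 TPM. At PN the 2 targets parted: Ctgf was below all E17.5 and E18.5 libraries and Cyr61 above all of them. Mid against early gave -1.95 ± 0.16 (limma, adjusted p = 1.58e-16) and late against mid 1.94 ± 0.14 (limma, adjusted p = 3.15e-18).

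Tead1 and Tead2 transcripts took different courses in NSC. Tead1 ranged from 21.5 to 45.0 TPM (median 33.8) in the mid window and from 67.6 to 114 TPM (median 75.7) in the late window, with the E16.5 libraries at 50.6, 46.2, 61.5 and 54.8 TPM between them. Late against mid gave 1.32 ± 0.10 (limma, adjusted p = 2.59e-17). Tead2 was 402 to 508 TPM (median 422) in the early window, 250.3 to 387 TPM at E13.5 and E14.5, and 128 to 196 TPM in the 4 libraries of E15.5. It was 247, 319 and 287 TPM at E17.5 and 198, 216 and 207 TPM at PN. All E15.5 and E16.5 libraries thus lay below those of E14.5 and E17.5, and neither mid against early (-0.69 ± 0.09) nor late against mid (-0.02 ± 0.08) was called. Tead3 gave -0.03 ± 0.11 and 0.34 ± 0.09 in the 2 comparisons, neither called.

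Within the family the share of Tead1 was larger, and that of Tead2 smaller, in late than in early NSC. Tead1 made up 4.25 to 8.43% (median 6.23%) of the summed Tead1 to Tead4 TPM in early NSC libraries and 18.3 to 27.4% (median 23.02%) in late ones, without overlap. Tead2 made up 88.5 to 92.3% (median 90.6%) early and 67.3 to 77.6% (median 70.9%) late. The family's sum was 452 to 553 TPM early and 294 to 428 TPM late in NSC, 117 to 242 TPM in BP and 28.7 to 61.0 TPM in NBN. Tead2 had the largest share in each library except an NBN library of E17.5, where it had 37.1% and Tead1 51.5%. Tead4, the fourth member of the family, never exceeded 1.32 TPM. No test was run on these shares.

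**Figure D3:**
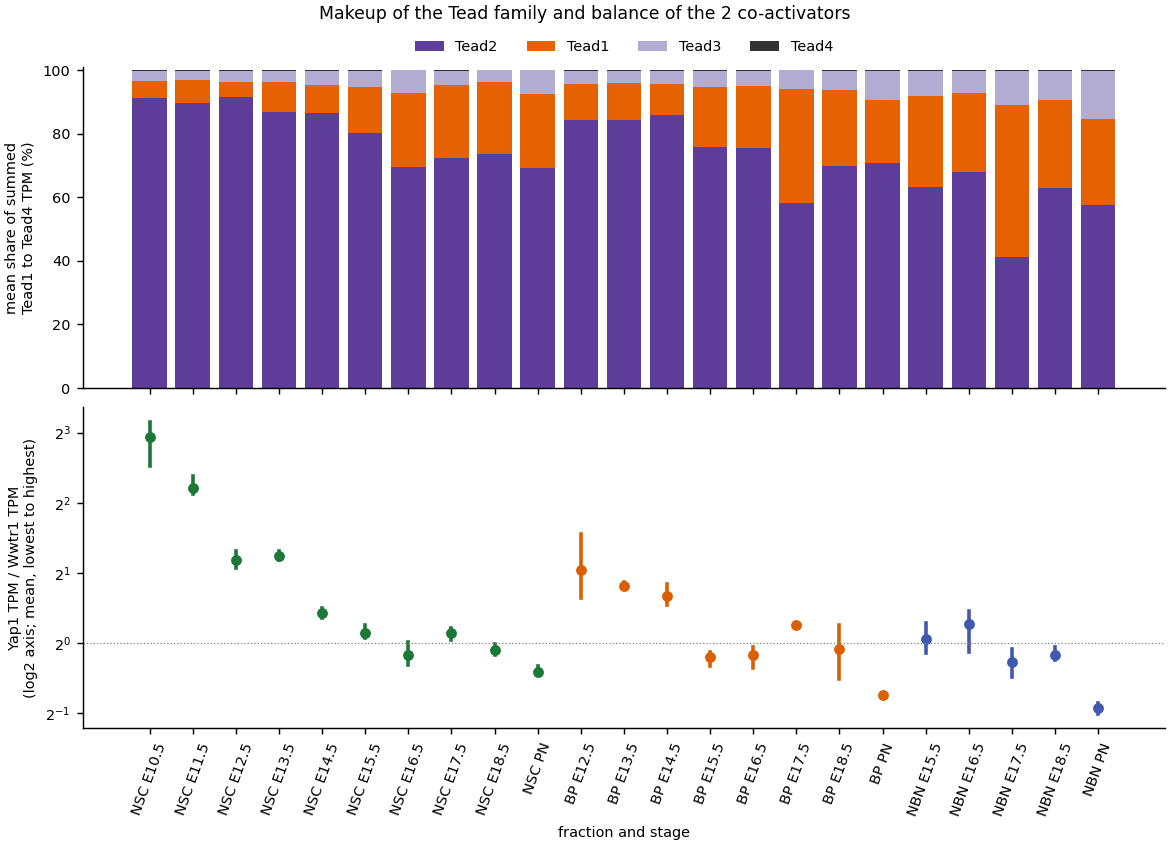
Top, the mean share (percent) of Tead1, Tead2, Tead3 and Tead4 in their summed TPM for each of the 23 groups. Bottom, the ratio of Yap1 to Wwtr1 TPM on a log2 axis, with points for group means and bars from the lowest to the highest library; NSC ratios are 4.36 to 8.90 in the early libraries and 0.728 to 1.16 in the late ones.

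Amotl2 and Lats2 had no called change between the pooled windows in NSC. Amotl2 was 102 to 143 TPM (median 112) in the mid window and 42.3 to 97.4 TPM (median 77.8) in the late window, with the 3 PN libraries lowest at 46.6, 44.7 and 42.3 TPM. No late library reached the mid range, and late against mid gave -0.77 ± 0.06 (limma, adjusted p = 1.81e-16), below the minimum of 1. Lats2 was 9.21 to 14.503 TPM (median 10.8) in the mid window and 14.2 to 18.2 TPM (median 15.3) in the late window, with a difference of 0.44 ± 0.07. E12.5 lies in none of these windows, and there both genes were below all E11.5 and E13.5 libraries. Amotl2 was 80.6, 78.3 and 49.97 TPM at E12.5, and Lats2 was 8.02, 8.73 and 4.92 TPM.

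The step from E16.5 to E17.5 separated the NSC libraries of most of these genes. Yap1, Wwtr1, Tead1, Tead2, Cyr61, Ctgf and Lats2, 7 of the 9, were higher in every E17.5 library than in every E16.5 library, as were 27.7% of all tested genes. The fourth E16.5 library stood nearest to E17.5 for several of them, with 19.2 TPM of Yap1 and 39.0 TPM of Cyr61 beside at most 11.2 and 21.8 TPM in the other 3.

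In counts, 3 of 9 genes were lower in mid than in early NSC, beside 5.26% of all genes, and 0 were higher, beside 13.7% (4 lower and 2 higher at an unadjusted p below 0.05 in limma). From mid to late 4 of 9 were higher, beside 9.31%, and 0 lower, beside 2.45% (7 higher and 1 lower at an unadjusted p below 0.05). The median of all tested genes was itself 0.14 for mid against early and 0.12 for late against mid, and median ratio scaling brought these to -0.05 and 0.03 with the calls of Yap1, Cyr61, Ctgf and Tead1 kept. Both comparisons use the same mid libraries, so a low value there enters both with opposite sign.

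Other cell types' markers moved with NSC stage as well. The summed mural markers were 58.4 to 78.8 TPM early, 13.4 to 41.5 TPM mid and 43.9 to 104.7 TPM late, and Notch3 alone had medians of 60.2, 19.2 and 31.8 TPM. Pdgfrb had early, mid and late medians of 6.04, 1.76 and 20.6 TPM and Anpep of 1.70, 0.121 and 0.274 TPM. Among these windows both were lowest in mid, as Cyr61 and Ctgf were. Rgs5 had medians of 0.110, 1.34 and 10.2 TPM, Abcc9 of 0.333, 0.655 and 1.25 TPM and Kcnj8 of 0.0339, 0.216 and 0.843 TPM. Outside the windows, at E12.5 and E16.5, medians were 0.927 and 4.88 TPM for Pdgfrb and 0.1 and 0.114 TPM for Anpep. For Cyr61 they were 21.0 and 19.9 TPM, and for Ctgf 2.07 and 3.46 TPM. The mid window was thus not the lowest point of Cyr61 or Ctgf in NSC. The summed meningeal markers were 11.8 to 99.5 TPM early, 2.29 to 6.33 TPM mid and 2.39 to 32.7 TPM late, with 4 of 6 called lower from early to mid. Neuron markers ran the other way, at 411 to 2955 TPM early, 2696 to 6310 TPM mid and 1154 to 2694 TPM late. Erythroid transcripts summed to 1186 to 8018 TPM in the early libraries and to at most 106 TPM in the mid ones. The dissociation list had medians of 466 TPM mid and 801 TPM late, and all 6 astroglial and all 6 oligodendrocyte precursor markers rose from mid to late. The part of each in the changes of Cyr61, Ctgf and Yap1 was not tested.

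Fewer of the 9 genes were called over time in BP and NBN than in NSC, and the same held for all tested genes. For late against mid, 1824 were called in NSC, 730 in BP and 361 in NBN. The scale of the tests also understates changes of genes as low as Yap1, Wwtr1, Cyr61 and Ctgf in BP and NBN. From the mid to the late window in BP, Tead1 was the 1 gene of 9 called higher, beside 3.29% of all genes, and 0 were lower, beside 1.42% (5 higher and 2 lower at an unadjusted p below 0.05 in limma). Tead1 stood at 13.8 to 14.7 TPM at E14.5, 32.9 to 35.6 TPM at E15.5, and 80.4 and 72.8 TPM at E17.5, then at 33.8 and 36.3 TPM at PN. Its difference was 1.20 ± 0.11 (limma, adjusted p = 1.51e-13), and with E12.5 and E16.5 added to the mid window it was 0.97, not called. The 2 E17.5 libraries were the highest of all BP libraries, and the E15.5 and PN ranges overlap. Among changes in BP that were not called, Amotl2 gave -0.63 ± 0.07 beside -0.77 in NSC, and Tead3 0.82 ± 0.11 beside 0.34. Wwtr1 gave 0.48 ± 0.12 beside 1.05 in NSC, Tead2 -0.08 ± 0.09 beside -0.02, and Lats2 -0.27 ± 0.07 beside 0.44.

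Yap1 in BP ranged from 3.22 to 4.42 TPM in the mid window and from 2.80 to 4.40 TPM in the late one, a difference of -0.01 ± 0.13. Cyr61 in BP reached 3.12 and 4.43 TPM at PN from 0.965 and 0.792 TPM at E17.5, and Ctgf 1.89 and 3.48 TPM at PN from 0.0268 and 0.0209 TPM at E17.5. These last values are too low to give a fold. Over the windows Cyr61 gave 0.48 ± 0.19 and Ctgf 0.33 ± 0.15 in BP, neither called.

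Whether the late change differed between the fractions was tested directly, as the BP change minus the NSC change. Ctgf differed by -1.61 ± 0.21 (limma, adjusted p = 2.92e-09): its mean over stages went from 2.46 to 13.1 TPM in NSC and from 0.449 to 1.10 TPM in BP. Cyr61 gave -0.88 ± 0.26 (limma, adjusted p = 0.00376), below the minimum, and without the first E14.5 NSC library it was -1.02 and called. Wwtr1 gave -0.57 ± 0.16 and Lats2 -0.71 ± 0.10, while Tead1 gave -0.12 ± 0.15. Yap1 gave -0.36 ± 0.17, Tead2 -0.06 ± 0.12, Tead3 0.48 ± 0.14 and Amotl2 0.14 ± 0.09, none of them called. In the same test 2 of 6 mural, 6 of 6 astroglial and 6 of 6 oligodendrocyte precursor markers were also called lower. So were 4 of 8 neural stem cell, 2 of 4 tested ependymal and 1 of 6 meningeal markers. Of the basal progenitor markers 1 of 6, and of the dissociation list 1 of 13, were called lower too. Neuron markers went the other way, with 4 of 8 called higher. The part of such cells in the Ctgf difference was not tested. In counts, 1 of 9 was lower, beside 6.85% of all genes, and 0 were higher, beside 2.86% (5 lower and 1 higher at an unadjusted p below 0.05 in limma).

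In NBN, late (E17.5 to PN) against mid (E15.5 and E16.5), 0 of 9 genes were higher, beside 1.27%, and 0 lower, beside 1.06% (3 higher and 4 lower at an unadjusted p below 0.05 in limma). Ctgf came nearest, at 2.73 and 5.02 TPM at PN and 0.428 to 1.92 TPM at E17.5 and E18.5, with a difference of 0.87 ± 0.17. It was called with a pseudocount of 0.1 (1.69) and with a late window of E18.5 and PN (1.21). Lats2 ranged from 7.64 to 10.2 TPM at E15.5 and E16.5 and from 4.45 to 7.07 TPM later, without overlap, and its difference of -0.68 ± 0.08 was below the minimum. Markers of other cells varied here too: the summed choroid plexus markers were 2.29 to 809 TPM in late BP libraries and 5.04 to 95.1 TPM in mid ones, mural markers 4.52 to 27.8 TPM and 1.51 to 7.73 TPM, and microglial markers in NBN 18.3 to 50.3 TPM late and 4.13 to 21.8 TPM before. Their part in these values was not tested.

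The rest of the pathway was examined with a list of 27 upstream and partner genes, all of them tested. In BP against NSC 2 were lower and 0 higher (9 lower and 11 higher at an unadjusted p below 0.05 in limma), a number close to what the 6.22% and 1.87% of all tested genes would give. They were Ajuba, a LIM protein gene whose product restrains LATS kinases, at -2.17 ± 0.07 and Wwc2, a relative of the KIBRA scaffold gene, at -1.11 ± 0.05. Ajuba ranged from 7.19 to 41.1 TPM in NSC and from 2.19 to 5.88 TPM in BP, so its ranges did not meet. Of the 9 kinase genes on the list (Stk3, Stk4, Lats1, Taok1, Taok2, Taok3, Map4k4, Csnk1d and Csnk1e) none was called by limma in BP against NSC, and their differences ran from -0.09 ± 0.06 for Stk3 to 0.56 ± 0.06 for Taok3. The list's median difference was 0.07, beside -0.02 over all genes.

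From BP to NBN 2 of 27 were higher and 3 lower, beside 4.36% and 5.06% of all genes. Fat4, an atypical cadherin gene, was higher by 1.37 ± 0.13 and Wwc2 by 1.36 ± 0.06. Limd1, another LIM protein gene, was lower by a difference of -1.37 ± 0.06, Stk3 by -1.20 ± 0.08 and Amot, a relative of Amotl2, by -1.18 ± 0.09. Fat4 had a median of 28.7 TPM in BP and 79.2 TPM in NBN, and Stk3 of 21.98 and 8.98 TPM. Against NSC, 5 of 27 were lower in NBN, beside 12.6% of all genes, and 1, Fat4, higher, beside 6.51%.

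From early to mid NSC 5 of the 27 rose and 1 fell, near the shares of all tested genes, 13.7% and 5.26%. The scaffold gene Wwc1 (KIBRA) rose by 1.44 ± 0.09, the TAO kinase genes Taok3 by 1.35 ± 0.11 and Taok1 by 1.22 ± 0.12, and Dchs1, the FAT4 ligand gene, by 1.12 ± 0.13. Lats1 was the fifth, going from a median of 13.4 TPM early to 28.7 TPM mid. Ajuba fell by 1.31 ± 0.12 over the same interval, from a median of 61.2 TPM to 26.1 TPM. From mid to late NSC 0 of 27 were higher and 0 lower, beside 9.31% and 2.45% (12 higher and 11 lower at an unadjusted p below 0.05 in limma). In BP the FERM-domain gene Frmd6 rose from mid to late by 2.68 ± 0.12, from a median of 3.99 TPM to 34.4 TPM, and was the 1 called gene of 27 there, beside 3.29% of all genes higher. Its change in BP exceeded that in NSC by 2.11 ± 0.16 (limma, adjusted p = 2.13e-16), and Wwc2 differed the other way by -1.31 ± 0.11.

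A list of 18 other YAP and TAZ targets, known mainly from cultured epithelial and cancer cells, was counted the same way. Of these 16 were tested; Myof never exceeded 1.16 TPM in the windows examined and Ankrd1 was near or at 0 throughout. In BP against NSC 3 of 16 were lower and 0 higher, beside 6.22% and 1.87% of all tested genes (11 lower and 3 higher at an unadjusted p below 0.05 in limma). They were Ccdc80, an extracellular matrix gene, at -2.69 ± 0.09, the receptor tyrosine kinase gene Axl at -2.18 ± 0.07, and the tissue factor gene F3 at -1.73 ± 0.06. Axl ranged from 8.89 to 70.9 TPM in NSC and from 1.48 to 7.44 TPM in BP.

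From mid to late NSC 6 of 16 rose and 0 fell, beside 9.31% and 2.45% of all genes (11 higher and 2 lower at an unadjusted p below 0.05 in limma). Ccdc80 rose by 3.02 ± 0.14, from a median of 9.54 TPM to 62.6 TPM, F3 by 2.29 ± 0.10, from 3.36 to 19.8 TPM, the ligand gene Tgfb2 by 2.17 ± 0.11, from 7.09 to 37.3 TPM, and Axl by 1.47 ± 0.10, from 18.3 to 43.9 TPM. From early to mid the list split, with 4 higher and 3 lower, beside 13.7% and 5.26%. Crim1 rose by 1.41 ± 0.11, Ccdc80 by 1.32 ± 0.16, Fjx1 by 1.21 ± 0.06 and Tgfb2 by 1.19 ± 0.13, against Ptpn14 at -1.90 ± 0.07, Nuak2 at -1.33 ± 0.07 and Gadd45a at -1.18 ± 0.11. Ptpn14, a phosphatase gene whose product restrains YAP, thus moved with Ctgf in that interval, from a median of 4.19 TPM early to 0.251 TPM mid, while Ccdc80 and Tgfb2 did not.

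In BP from mid to late, 2 of 16 rose, Tgfb2 by 2.46 ± 0.12 and Ccdc80 by 1.38 ± 0.15, and 3 fell, Igfbp3 at -1.31 ± 0.17, Fjx1 at -1.09 ± 0.06 and Nuak2 at -1.06 ± 0.07, beside 3.29% higher and 1.42% lower of all genes. The change in BP was lower than that in NSC for 5 of 16 and higher for 0, beside 6.85% and 2.86% (9 lower and 1 higher at an unadjusted p below 0.05 in limma). The 4 largest were Igfbp3 at -2.52 ± 0.23, Fjx1 at -2.06 ± 0.08, F3 at -1.68 ± 0.15 and Ccdc80 at -1.64 ± 0.21. From BP to NBN 2 of 16 were higher, Igfbp3 by 2.57 ± 0.14 and Asap1 by 1.26 ± 0.09, and 3 were lower, Gadd45a at -1.65 ± 0.09, Tgfb2 at -1.65 ± 0.10 and Axl at -1.01 ± 0.09, beside 4.36% and 5.06% of all genes. Within NBN, Igfbp3 fell from mid to late by 2.58 ± 0.19, while Tgfb2 rose by 1.28 ± 0.13, each 1 of 16 beside 1.06% lower and 1.27% higher of all genes.

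**Figure D4:**
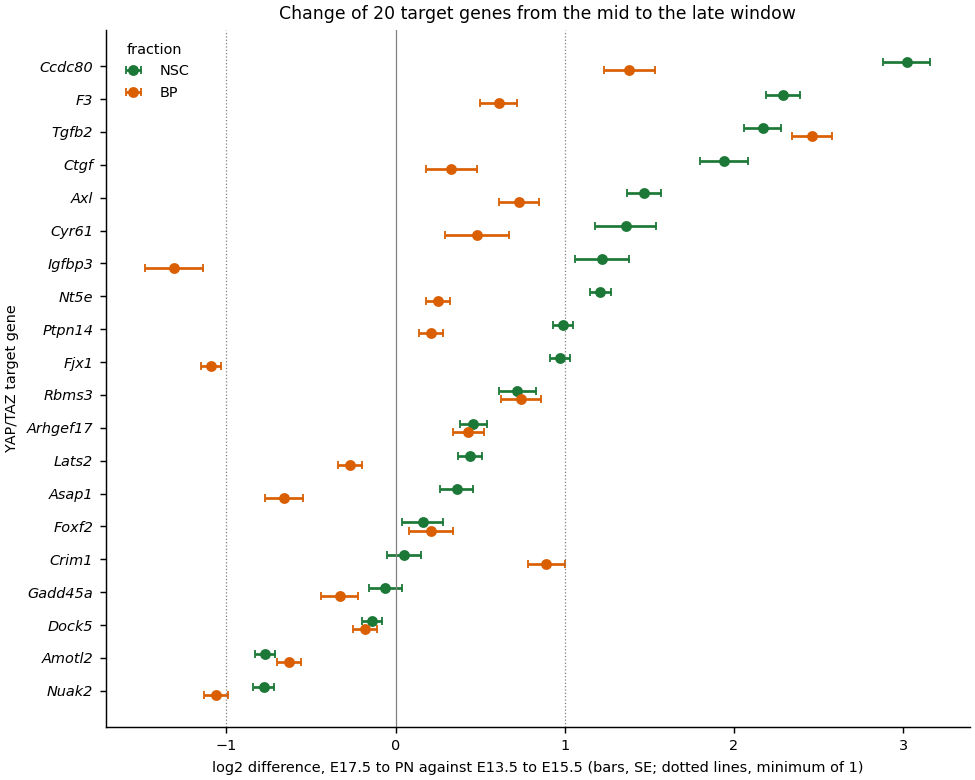
Log2 difference of the late against the mid window for 20 target genes (Cyr61, Ctgf, Amotl2, Lats2 and the 16 tested genes of the wider list) in NSC (green) and BP (orange), with bars for 1 SE and dotted lines at the minimum of 1. Ctgf, F3, Ccdc80, Igfbp3 and Fjx1 lie clearly further right in NSC, while Tgfb2 is high in both at 2.17 and 2.46.

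Ordered by group mean over all 23 groups, the highest and lowest places differed among the 9 genes. The highest group was NSC E10.5 for Yap1 (127 ± 3.28 TPM, SD, n = 3), NSC E11.5 for Tead2 (446 ± 54.9 TPM, n = 3), NSC E18.5 for Tead1 (94.8 ± 21.0 TPM, n = 3) and Ctgf (18.6 ± 1.35 TPM, n = 3), and NSC PN for Wwtr1 (53.8 ± 0.827 TPM, n = 3), Tead3 (22.5 ± 1.48 TPM, n = 3), Cyr61 (118 ± 16.8 TPM, n = 3) and Lats2 (16.6 ± 1.49 TPM, n = 3). Amotl2 alone had a BP group highest, BP E12.5 (184 ± 0.969 TPM, n = 3), and the NSC group of PN lowest (44.5 ± 2.16 TPM, n = 3). Cyr61 and Ctgf were lowest in BP groups, BP E13.5 (0.502 ± 0.217 TPM, n = 3) and BP E17.5 (0.0238 ± 0.00412 TPM, n = 2), while Yap1, Wwtr1, Tead1, Tead2, Tead3 and Lats2 were lowest in NBN groups. Of the 22 pairs of neighbours in each order, the ranges of libraries overlapped in 16 for Yap1, Tead1 and Tead2, in 17 for Wwtr1 and Cyr61, in 18 for Tead3 and Amotl2 and in 20 for Ctgf and Lats2, so most neighbours did not differ beyond their spread.

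The genes whose group means on the log2 scale ran most like those of each member, by Pearson correlation over the 23 groups, are given as a description with no test. These were Crb2 (0.99), Mrc2 and Six5 for Yap1, Megf10 (0.983), Mdfic and Plce1 for Wwtr1, and Alpl (0.978), Zfp36l1 and Psat1 for Cyr61. H19 (0.962), Ehd2 and S100a11 were most like Ctgf. For the TEAD genes they were Pde5a (0.957), Ripk1 and Wnk1 for Tead1, Tjap1 (0.984), Tcf3 and Clic1 for Tead2, and Pax6 (0.955), Ulk4 and Uaca for Tead3. Amotl2 had the weakest best match, Foxk2 (0.874), followed by Ubqln1 and Efna2, and for Lats2 they were Stxbp6 (0.924), Pim1 and Tmem129. The 23 groups share reporter lines and stages, so these values carry the split between NSC and the other fractions.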

How the data were processed

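The values are TPM per gene in 70 sorted-cell libraries, deposited by the authors and made with kallisto 0.43.0, per the submitters' processing notes, which list the builds GRCm38.p2 and mm10. TPM keep no read depth, so depth is unknown and no interval or floor needing counts was computed. Between 16098 and 21210 genes were above 0 per library, and a value of 0 is given as "listed at 0". A gene entered the tests if some group averaged 1 TPM or more, which 15508 did. On log2(TPM + 1), group means were fitted with limma 3.58.1 in R 4.3.3 (trended moderated variances, 47 residual degrees of freedom) and stages were weighted equally. A call needed a Benjamini-Hochberg adjusted p, over all tested genes, below 0.05 and a difference of at least 1. The fit was tested on simulated data. The sources used here do not give how BP and NBN were separated. Gene coordinates are from GENCODE on GRCm38; 22361 identifiers matched its names.

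The 9 genes and all lists were chosen with earlier results of these data known. All 9 are named; of the wider lists, up to 4 called genes per direction and comparison; of like patterns, the 3 best. The 9 kinase genes of the pathway list, the 6 mural markers, Cd37, Myof, Ankrd1 and Tead4 were named after their values were seen. Alternatives were other pseudocounts, filters, scalings, variance models, stage windows, a replicate block and leaving out each library.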

Additional observations from a re-analysis of the deposited data

Results flagged for a closer look

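In 45 sets of 4 libraries (9 genes in the 5 groups that have 4), 1 library stood far from the other 3 by a test of its gap against the range in 3 sets, and chance marks about 1 in 20 such sets. Wwtr1 was 23.269 TPM in the fourth NSC library of E16.5, against 10.245, 10.331 and 11.117 TPM in the others. Tead2 was 244.63 TPM in the same library, against 137.28, 137.91 and 143.01 TPM. Tead3 was 4.5336 TPM in the first NBN library of E15.5, against 3.3223, 3.428 and 3.4327 TPM. Ctgf changed differently in the 2 fractions from the mid to the late window, by -1.61 for BP minus NSC in limma's interaction test.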

How the results depend on the processing

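Counts of called genes over the whole table moved with the pseudocount and with the stages compared. With a pseudocount of 0.1 in place of 1 they were 2031 for BP against NSC (1255 as reported), 2256 for NBN against BP (1461), 2788 for late against mid NSC (1824), 1534 for the same in BP (730) and 893 in NBN (361). With 5 they were 634, 729, 918, 285 and 132 in that order, 1791 for NBN against NSC (2961), 1625 for mid against early NSC (2944) and 780 for the BP change minus the NSC change (1505). For BP against NSC the count was 592 without the stages after E16.5 and 2865 with those stages alone, for NBN against NSC 1567 without them, and mid against early NSC 1828 with E12.5 counted as early.

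The number of the 9 genes called moved from 1 to 0 for late against mid BP with the mid window E12.5 to E16.5, from 0 to 1 in NBN with a pseudocount of 0.1 or a late window of E18.5 and PN, and from 1 to 2 for the BP change minus the NSC change with a pseudocount of 5 or quantile normalization. With single libraries left out that last number ran from 1 to 2. Without the third E14.5 NSC library the number called was 2 for mid against early and 3 for late against mid. Signs turned for uncalled values near 0. For mid against early NSC these were Tead1 (-0.11), Amotl2 (-0.05) and Lats2 (-0.17) after median ratio scaling and Tead1 (-0.14) and Lats2 (-0.29) after quantile normalization. Tead2 in late against mid NSC was 0.01 after quantile normalization and 0.05 with the longer mid window, Wwtr1 in NBN was -0.05 after quantile normalization, Yap1 in BP was 0 and the Amotl2 difference of changes -0.13 with the longer mid window. Leaving out single libraries gave -0.07 to 0.01 for Tead3 in mid against early NSC, -0.08 to 0.02 for Tead2 in late against mid NSC, -0.03 to 0.03 for Yap1 in BP and -0.06 to 0.19 for Wwtr1 in NBN. Of the other single-gene results, 1912 kept direction and call with a library left out and 792 under other alternatives. Scaling moved the share of calls that were higher from 72.3% to 52.7% (median ratio) and 52.1% (quantile) in mid against early NSC, from 79.2% to 57.8% (quantile) in late against mid NSC, from 69.9% to 56.4% and 49.9% in BP, from 34.1% to 49.4% (quantile) in NBN against NSC and from 23.1% to 33.3% (quantile) in BP against NSC. The causes were not tested.

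Same-numbered libraries deviated together (r over 0.1) in 8 of 14 BP and NBN pairs. The same held for 9 of 23 BP and NSC pairs and 1 of 14 NBN and NSC pairs. Median r was 0.12, 0.04 and -0.04 in that order. Differently numbered pairs were not summarized for comparison, so whether BP and NBN libraries were paired is unknown. The tests treated all libraries as unpaired, and p-values of NBN against BP do not allow for any pairing. With the replicate block, Yap1 in late against mid BP was 0.01 and no call of the 9 genes changed. That block shared each replicate number across all stages and fractions, so it could not adjust for pairing within a stage. Depth is unknown, groups hold 2 to 4 libraries, and values under 1 TPM, such as Ctgf in BP, are imprecise.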
